A study of Mus musculus with 6 samples.

Results

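The 6 genes described here, Meg3, Rian, Mirg, Dlk1, Rtl1 and Dio3, belong to the Dlk1-Meg3 imprinted cluster of mouse chromosome 12. They were taken by name from the 21761 genes of the count table, which held a row for all 6, and they were chosen with the difference between genotypes in these libraries already known. Their levels by genotype are therefore given as a description, with no p-value, and the number of them called is printed only beside the share over all genes. RNA came from LT-HSCs, long-term blood stem cells able to repopulate the marrow over many months, sorted as CD45.2+ LSK CD150+ CD48- CD34- cells, 200 per library. IMP1 libraries came from marrow of genotype Rosa26 I/+;Mx1-Cre tg/+, which carries a conditional knock-in of the fetal RNA-binding protein IMP1 (gene Igf2bp1) in the Rosa26 locus. Control libraries came from Rosa26 +/+;Mx1-Cre tg/+ marrow, and each genotype had 3 libraries described as biological replicates. Cells of both genotypes had been transplanted into lethally irradiated CD45.1/2 hosts, carried the interferon-inducible Mx1-Cre transgene, and were sorted 8 weeks after the last poly(I:C) injection. Mx1-Cre recombines in many tissues, and host cells outside the blood lacked the knock-in. Neither the age of the animals nor any pooling was given in the sources used here.

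An imprinted gene is transcribed mainly from the copy inherited from 1 parent. In this cluster the paternal chromosome expresses the protein-coding genes Dlk1, Rtl1 and Dio3, while the maternal chromosome expresses the noncoding RNAs Meg3, Rian and Mirg, which carry many small nucleolar RNAs (snoRNAs) and microRNAs (miRNAs). The choice is set by DNA methylation of a control region between Dlk1 and Meg3. In mouse blood the locus, also known as Dlk1-Gtl2, has been described as active in fetal and long-term stem cells, where its maternal RNAs restrain signalling through PI3K and mTOR. Counts cannot show which parental copy a read came from.

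Meg3 is where the maternal RNAs start, so its start is shown beside the annotated starts of Rian and Mirg, whose RNAs are thought to continue from the same transcription unit. The windows run from 250 bases before to 50 after the annotated start (RefSeq, GRCm38.p6, plus strand, 5′ to 3′), and capitals mark matches on either strand to 5 motifs. These were TGACGTCA (the cAMP response element), the TATA box searched as TATAAA, the binding box of the factor NF-Y searched as CCAAT, the GC box searched as GGGCGG, and TGCCGC, the hexamer that the imprint protein ZFP57 binds when methylated.
Meg3 window, chr12:109540746-109541045: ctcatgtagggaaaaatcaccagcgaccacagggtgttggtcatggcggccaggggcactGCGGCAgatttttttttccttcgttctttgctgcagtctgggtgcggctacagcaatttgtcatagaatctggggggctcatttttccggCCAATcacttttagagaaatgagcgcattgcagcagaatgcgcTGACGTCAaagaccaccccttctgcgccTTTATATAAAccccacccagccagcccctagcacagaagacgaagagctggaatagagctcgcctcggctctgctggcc
Rian window, chr12:109603695-109603994: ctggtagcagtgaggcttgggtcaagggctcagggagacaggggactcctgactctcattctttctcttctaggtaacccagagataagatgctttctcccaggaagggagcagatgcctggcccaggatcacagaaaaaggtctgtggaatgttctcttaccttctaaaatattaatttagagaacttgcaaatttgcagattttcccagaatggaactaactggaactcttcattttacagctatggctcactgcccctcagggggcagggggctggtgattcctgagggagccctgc
Mirg window, chr12:109734731-109735030: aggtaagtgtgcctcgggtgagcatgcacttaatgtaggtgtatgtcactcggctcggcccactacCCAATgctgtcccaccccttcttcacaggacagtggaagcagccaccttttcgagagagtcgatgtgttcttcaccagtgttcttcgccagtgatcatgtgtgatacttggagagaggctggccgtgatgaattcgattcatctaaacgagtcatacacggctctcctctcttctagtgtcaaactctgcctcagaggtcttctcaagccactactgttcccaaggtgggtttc
The Meg3 window shown held 4 of the 5 motifs and 13 CpG pairs, and the window of a further annotated Meg3 start downstream (not shown) held 0 motifs and 1 CpG pair. Matches to TATAAA on both strands overlap in 1 stretch. Of 32851 windows of this length over the genome, 1.79% held the cAMP response element, 13.6% the TATA box, 37.4% the CCAAT box, 35.7% the GC box and 11.6% the ZFP57 hexamer, and the median window held 7 CpG pairs. The Rian window held 0 CpG pairs and 0 of the motifs, and that of Mirg held 10 CpG pairs and a CCAAT match. Of the coding genes, the Dlk1 window held 9 CpG pairs and 0 of the motifs, and the Dio3 window 25 CpG pairs and 3 of them. These matches describe the sequence and were not tied to any value measured here.

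The noncoding genes also serve as hosts. RefSeq placed 61 miRNA genes with 114 mature miRNAs in the cluster, 2 of the genes within the span of Meg3, 3 within Rian, 10 within Mirg, 15 within Rtl1 and 31 elsewhere. Of 104 distinct seeds (bases 2 to 8, the part that pairs with a target), 9 were shared by more than 1 mature miRNA. Mature miRNAs for each host and 3 seed-sharing pairs are shown with the seed in capitals, to show what these RNAs can release. miR-770-5p lies in Meg3, miR-370-3p in Rian, miR-453, miR-496a-5p and miR-410-5p in Mirg, and miR-127-3p and miR-136-5p on the strand opposite Rtl1. The pairs are miR-379-3p with miR-411-3p, miR-453 with miR-496a-5p, and miR-494-5p with miR-410-5p.
miR-770-5p: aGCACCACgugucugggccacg
miR-127-3p: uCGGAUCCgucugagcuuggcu
miR-136-5p: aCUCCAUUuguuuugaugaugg
miR-370-3p: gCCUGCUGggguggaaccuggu
miR-379-3p: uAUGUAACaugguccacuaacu
miR-411-3p: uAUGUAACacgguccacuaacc
miR-453: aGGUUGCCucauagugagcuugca
miR-496a-5p: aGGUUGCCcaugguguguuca
miR-494-5p: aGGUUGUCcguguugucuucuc
miR-410-5p: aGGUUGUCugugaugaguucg
The cDNA kit amplifies long polyadenylated RNA, so the counts do not measure mature miRNAs. Of 54 rows for miRNA genes from Begain to Dio3os, 53 were at 0 in all libraries.

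Control libraries held 25749898 to 27338450 counts and IMP1 libraries 50220629 to 67083116, on average 2.26 times as many, and no label gave a batch. Igf2bp1 was nearly absent from Control libraries (0, 0 and 1 counts) and had 1870, 2084 and 2016 counts in IMP1 1, 2 and 3. Levels are counts per 1e6 counts (CPM) after TMM scaling, given as mean ± SD over 3 libraries. All 12 LT-HSC markers examined, such as Kit and Hlf, were found in every library, with sums of 1865 to 2101 CPM (Control) and 2401 to 2716 CPM (IMP1). Cd34, which the gate selects against, still ranged over 263 to 317 CPM in Control and over 141 to 212 CPM in IMP1 libraries. Markers of other cells were also present, and fewer cells of a type and less RNA per cell cannot be told apart in such bulk libraries.

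The maternal RNAs Meg3 and Rian were many times higher in the IMP1 libraries, while the paternal genes Dlk1, Rtl1 and Dio3 were low in both genotypes. Summed over the 6 genes, Control libraries averaged 2.21 ± 1.36 CPM and IMP1 libraries 27.3 ± 1.70 CPM, and the latter mean was 12.4 times the former. Meg3 and Rian made up 94.7% to 96.7% of the cluster counts in the IMP1 libraries. Of the 6 genes, 3 passed the filter on low counts (Meg3, Rian and Dlk1), each through its IMP1 libraries alone. At a Benjamini-Hochberg adjusted p under 0.05 edgeR called 0 of these 3, against 0.211% of all 12807 genes tested (0.0703% called higher in IMP1). At an unadjusted p under 0.05 it called 2 of 3, against 14.3% of all genes (6.67% higher in IMP1). DESeq2, a second tool, called 2 of the 4 cluster genes with an adjusted value, against 6.39% of all genes (2.81% higher in IMP1). Since the genes were chosen on this difference, these counts say nothing beyond the values.

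Meg3, a long noncoding RNA that stays largely in the nucleus, showed 62, 6 and 47 counts in Control 1, 2 and 3 against 1323, 1276 and 565 in IMP1 1, 2 and 3. Its levels were 2.33, 0.237 and 1.88 CPM in Control, against 20.7, 18.4 and 10.9 CPM in IMP1 libraries. Every IMP1 library was above every Control library, and the lowest IMP1 value was 4.67 times the highest Control value. Control 2 stood apart on the low side, 9.81 times under Control 1. The means were 1.48 ± 1.10 and 16.7 ± 5.15 CPM, and the fitted log2 fold change was 3.49 (SE 0.81). Over the settings tried it lay between 2.99 and 3.97, the lowest without Control 2 and the highest without Control 1. In a ranking of the fitted log2 fold changes of all genes tested, Meg3 was number 110 from the top.

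Rian, the host of a large array of C/D box snoRNAs, showed 16, 5 and 0 counts in Control 1, 2 and 3 against 448, 490 and 733 in IMP1 1, 2 and 3. This gave 0.601, 0.198 and 0 CPM in Control and 7.03, 7.06 and 14.1 CPM in IMP1 libraries. A count of 0 in Control 3 allows a level of up to 0.120 CPM (3 counts). The groups did not overlap, and the lowest IMP1 library was 11.7 times the highest Control library. Means were 0.266 ± 0.306 and 9.40 ± 4.08 CPM, with a fitted log2 fold change of 5.12 (SE 1.24), number 54 from the top. From pooled counts relative to depth the IMP1 group was 33.1 times the Control group (95% counting interval 21.6 to 53.6). That interval leaves out the spread between libraries. The size of the fold rests on few Control counts, since the fitted value was 6.53 without Control 1 and 4.54 without Control 3. Of the 3 tested cluster genes, Meg3 and Rian had every IMP1 library above every Control library, as did 10.7% of all genes tested.

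Mirg, the noncoding host of the distal miRNAs, had 0 counts in all 3 Control libraries against 49, 1 and 6 in IMP1 1, 2 and 3. These were 0.768, 0.0144 and 0.116 CPM, so IMP1 1 was high and IMP1 2 close to the Control libraries. Against a floor of 3 counts over the Control group, the fold of Mirg in the IMP1 group was 7.76. This fold takes the IMP1 counts as exact. The 95% counting interval of the pooled ratio had a lower limit of 6.10 and no upper limit. That interval leaves out the spread between libraries, and IMP1 1 gave 87.5% of the Mirg counts. The fold against the floor was 1.48 without IMP1 1, 12.2 without IMP1 2 and 9.63 without IMP1 3. Mirg did not pass the filter and was not tested. IMP1 1 was also the library with the red-cell RNA Car1 (146 CPM, at most 14.5 in the others). The erythroid list as a whole (11 of 14 genes in the table, 0 of them at 0 throughout) summed to 3420 to 4232 CPM in Control and 3947 to 5335 CPM in IMP1 libraries, nearly all of it Car2. Hbb-b1 was higher in every IMP1 library (76.3, 59.9 and 51.5 CPM) than in the Control libraries (17.9, 13.6 and 19.3 CPM), and Hbb-bs and Alas2 separated the groups in the same direction. The part of these RNAs in the Mirg value was not tested.

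**Figure D1:**
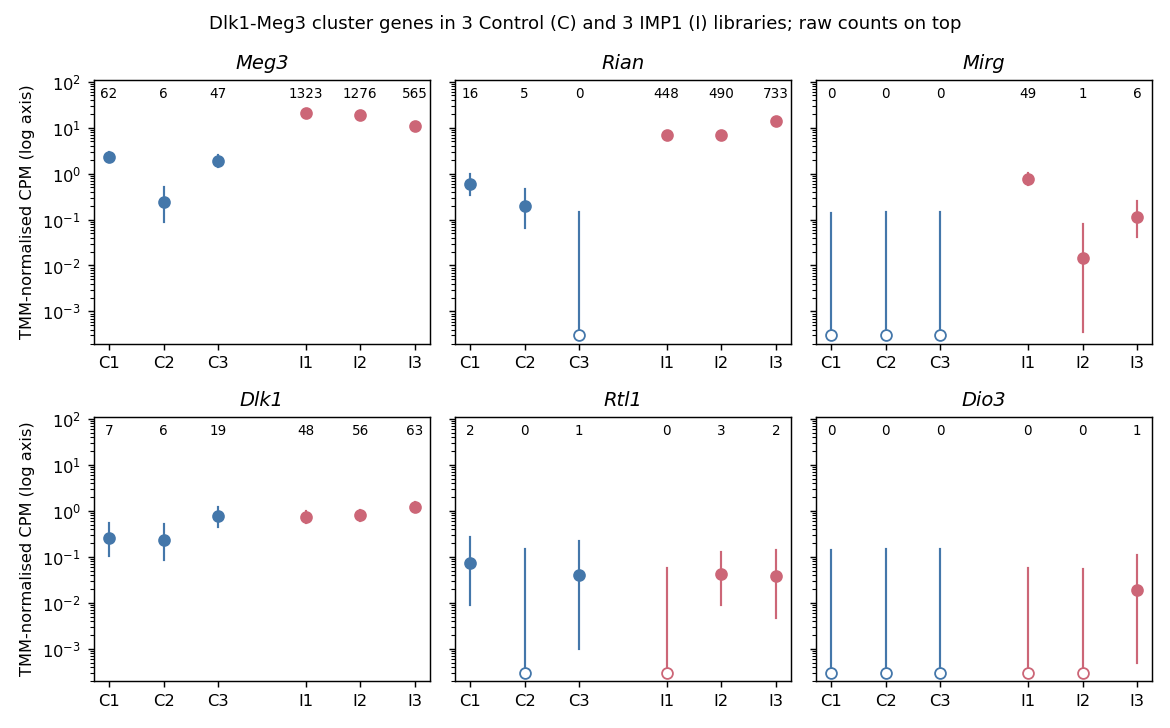
Levels of the 6 cluster genes in each library, in TMM-normalised CPM on a log axis, with raw counts along the top and exact 95% counting intervals as lines. Open circles at the bottom stand for 0 counts. Meg3 and Rian separate the groups, Mirg is high in IMP1 1 alone, and the Dlk1 values of the groups touch.

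Dlk1, a transmembrane relative of the Notch ligands that holds back adipocyte differentiation, showed 7, 6 and 19 counts in Control 1, 2 and 3 against 48, 56 and 63 in IMP1 1, 2 and 3. This gave 0.263, 0.237 and 0.760 CPM in Control and 0.753, 0.807 and 1.21 CPM in IMP1 libraries. The groups overlapped, since Control 3 lay just above IMP1 1. Means were 0.420 ± 0.295 and 0.924 ± 0.251 CPM, with a fitted log2 fold change of 1.13 (SE 0.88). Without Control 3, the library in which Dlk1 was highest among the controls, the value was 1.87. Without Control 2 it was 0.85, the lowest over the settings tried.

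Rtl1, a retrotransposon-derived gene needed in the mouse placenta, had 2, 0 and 1 counts in Control and 0, 3 and 2 in IMP1 libraries. Relative to depth, pooled IMP1 counts were 0.693 times those of Control (interval 0.135 to 4.46), so a difference in either direction was not detectable at this depth. Dio3, which encodes the deiodinase that inactivates thyroid hormone, had 0 counts in 5 libraries and 1 count in IMP1 3, and no fold is given. In the IMP1 libraries 3 counts correspond to 0.0432 to 0.0578 CPM, which sets the level that could have been missed. In RefSeq the span of Rtl1 on the minus strand overlaps those of Meg3 and Rian on the plus strand and holds 15 miRNA genes, most of them also on the plus strand. The counting was not stated to use strand, so reads of Rtl1 and of the RNAs opposite it cannot be told apart.

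Because depth differed with genotype, all libraries were also thinned to the smallest total. Meg3 then had 113 counts over the Control and 1382 over the IMP1 libraries, Rian 20 and 772, and Mirg 0 and 25. Dlk1 had 32 and 69, Rtl1 3 and 3, and Dio3 0 and 0. At equal depth Meg3 and Rian thus still differed most in counts between the groups.

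Per length, using the longest GENCODE transcript of each gene (the form in these cells may be shorter), Rian and Meg3 had similar means in the IMP1 libraries, at 1.16 ± 0.504 and 1.15 ± 0.354 CPM per kilobase. In no single library were they level, since Meg3 over Rian per length was 1.64, 1.45 and 0.429 in IMP1 1, 2 and 3. Dlk1 followed at 0.199 ± 0.0540, Mirg at 0.0783 ± 0.107, Rtl1 at 0.00429 ± 0.00373 and Dio3 at 0.00316 ± 0.00548 CPM per kilobase. The libraries of Rian and Meg3 overlapped, as did those of Dlk1 and Mirg, of Mirg and Rtl1, and of Rtl1 and Dio3, whereas Meg3 was above Dlk1 in every IMP1 library. In the Control libraries Meg3 (0.102 ± 0.0757 CPM per kilobase) and Dlk1 (0.0903 ± 0.0634) overlapped, and Rian (0.0329 ± 0.0379) overlapped with both.

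The make-up of the maternal output differed between IMP1 libraries. Rian took 25.3% of the Meg3 and Rian counts in IMP1 1 (exact 95% interval 23.3% to 27.4%) and 27.7% in IMP1 2 (25.7% to 29.9%), but 56.5% in IMP1 3 (53.7% to 59.2%). IMP1 3, which was lowest for Meg3 among the IMP1 libraries, was highest for Rian. The Control libraries gave 20.5% (12.2% to 31.2%) in Control 1, 45.5% (16.7% to 76.6%) in Control 2 and 0% (up to 7.55%) in Control 3. The summed level of the 6 genes was more even over the IMP1 libraries than either RNA, at 29.3, 26.3 and 26.4 CPM, a coefficient of variation of 6.22% against 30.9% for Meg3 and 43.4% for Rian. Intervals here reflect counting error of reads alone. The cDNA was amplified and carried no molecular barcodes, so reads are not separate molecules and the intervals may be too narrow. In the same libraries Igf2bp1 stood at 29.3, 30.0 and 38.8 CPM.

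**Figure D2:**
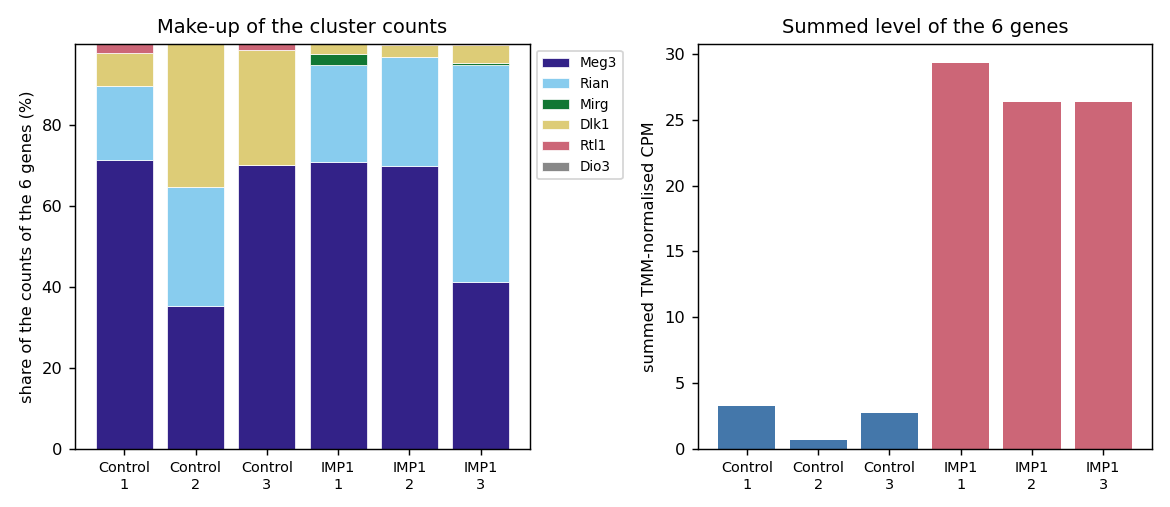
Left, share of each of the 6 genes in the cluster counts of each library, in percent. Right, their summed TMM-normalised CPM. Rian takes 53.5% of the cluster counts in IMP1 3 and 24.0% in IMP1 1, while the summed levels of the IMP1 libraries lie between 26.3 and 29.3 CPM.

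Stromal cells of the marrow were examined because Meg3 is also expressed in mesenchymal cells. The 12 stromal markers summed to 30.5 to 45.3 CPM in Control and 37.8 to 44.8 CPM in IMP1 libraries. Pdgfra, Col3a1 and Dcn were at 0 in every library. Lepr made up most of the sum, at 23.0 to 30.7 CPM, and Cxcl12 was at 0 except in IMP1 3, where it stood at 2.50 CPM. Pdgfrb did separate the groups, at 2.63, 2.57 and 3.16 CPM in Control against 9.69, 7.81 and 6.83 CPM in IMP1 1, 2 and 3, and its part in the Meg3 level was not tested. Neutrophil markers (9 of 10 in the table, 0 at 0 throughout) summed to 273 to 315 CPM in Control and to 911, 509 and 229 CPM in IMP1 1, 2 and 3. S100a8 was at 242, 170.4 and 11.4 CPM in those and at 5.24 to 12.03 CPM in Control libraries, whereas Prtn3 was at 234 to 296 CPM in Control and 198 to 213 CPM in IMP1 libraries, and their part in the levels of the cluster was not tested. Markers of endothelial cells (104 to 124 against 97.4 to 108 CPM, Cdh5 at 0) and of mast cells (454 to 491 against 375 to 479 CPM, Cma1 at 0) had overlapping sums, as did those of megakaryocytes (356 to 750 against 328 to 549 CPM). Among the megakaryocyte markers Vwf separated the groups, at 88.5, 27.9 and 51.5 CPM in Control against 109, 177 and 97.4 CPM in IMP1 libraries. Pf4 (442, 202 and 203 against 305, 169 and 102 CPM) and Itga2b (129, 38.2 and 91.7 against 42.9, 26.2 and 41.9 CPM) leaned the other way and overlapped. The mast cell sum was mostly Gata2, which stem cells also express, and within it Fcer1a separated the groups, at 34.7, 24.3 and 21.3 CPM in Control against 2.37, 0 and 0 CPM in IMP1 libraries. B cell markers summed to 71.6 to 85.5 against 79.9 to 147 CPM, with Pax5 and Ms4a1 at 0. The summed T and NK cell markers (212 to 399 CPM in Control, 103 to 111 CPM in IMP1 libraries, with Cd3g, Gzma and Gzmb at 0) were nearly all Nkg7, and members did not move one way. Nkg7 was at 396, 299 and 206 CPM in Control against 98.8, 71.8 and 88.2 CPM in IMP1 libraries, while Klrb1c was higher in the latter (0.277 to 5.56 against 11.8 to 34.1 CPM). The part of these markers was not tested either. The markers that edgeR called included Hbb-b1 (erythroid) and Nkg7 (NK cells).

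Other RNAs of the domain were sparse. Of 59 further rows from Begain to Dio3os, 5 had a count and 0 passed the filter. The snoRNA AF357359, within the span of Rian, had 22, 0 and 9 counts in the IMP1 libraries and 0 in the Control libraries. The snoRNA AF357355, also within Rian, had 12 counts in IMP1 2 alone. Mir1906-1, within the span of Meg3, had 11 counts in IMP1 1 and 1 in IMP1 3. Reads of these short genes cannot be told from those of their hosts. Begain, the coding gene at the Dlk1 end, had 4, 2 and 0 counts in Control and 10, 123 and 5 in IMP1 libraries, so that a single library, IMP1 2, held most of its 144 counts. Dio3os, the antisense partner of Dio3, had 3 counts in all.

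The genes on either side of the domain, 10 in each direction, were examined for a difference reaching past it. Of these 20, 12 were tested and edgeR called 0 (against 0.211% of all genes), 1 had an unadjusted p under 0.05 and DESeq2 called 0. Log2 fold changes were positive for 4 of 12, with a median of −0.04 against 0.03 for all genes tested. Ppp2r5c, a regulatory subunit of protein phosphatase PP2A, had 296 ± 37.7 CPM in Control against 240.3 ± 3.33 CPM in IMP1 libraries (log2 fold change −0.30, SE 0.12, edgeR adjusted p = 0.307). Cinp stood at 60.6 ± 13.5 and 44.5 ± 1.70 CPM (edgeR adjusted p = 0.415). The abundant chaperone gene Hsp90aa1 was at 1106 ± 210.2 and 1089 ± 298 CPM (edgeR adjusted p = 0.974).

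**Figure D3:**
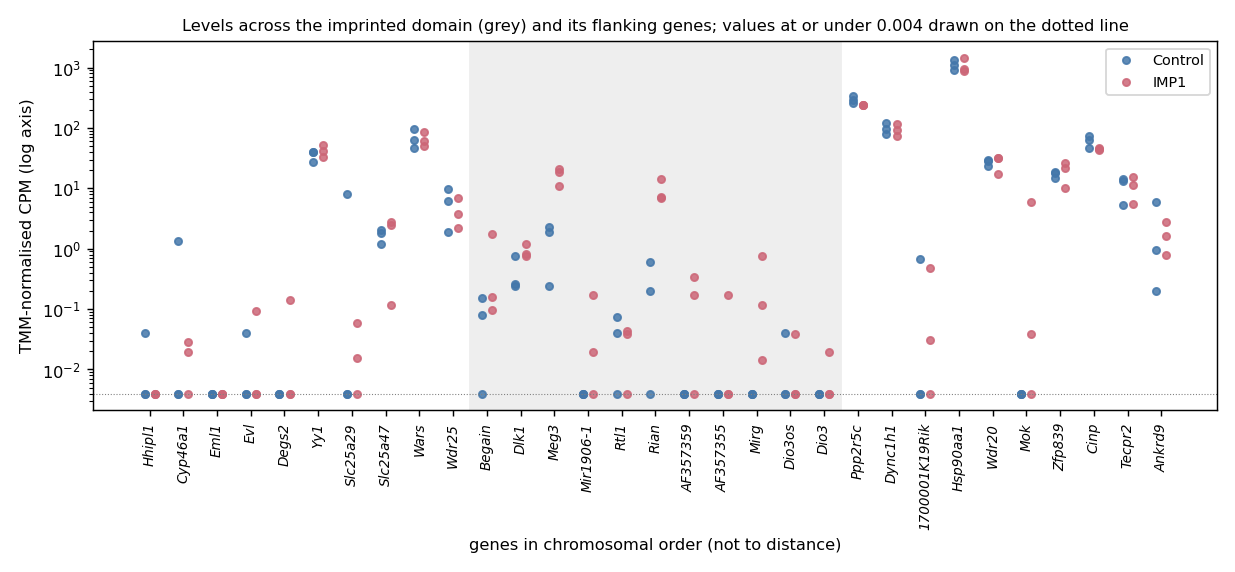
Levels of the flanking genes and of the domain's rows with a count, in chromosomal order, as TMM-normalised CPM on a log axis. Each point is 1 library, blue for Control and red for IMP1. The IMP1 points of Meg3 and Rian lie clear of their Control points. Of the 12 tested flanking genes, 2 (Ppp2r5c and Cinp) had all IMP1 points below the Control points and 0 had them above, against 11.2% and 10.7% of all genes tested.

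Regulators of imprinting were compared because methylation sets the expression of the cluster. Of 32 such genes 30 were tested. edgeR called 0, 4 had an unadjusted p under 0.05, all of them higher in IMP1 libraries, and DESeq2 called 3. The 3 were also all higher in IMP1 libraries. Over all genes edgeR called 0.211%, 14.3% had an unadjusted p under 0.05 (6.67% higher in IMP1) and DESeq2 called 6.39% (2.81% higher). In 9 of the 30 every IMP1 library was above every Control library, and in 1 below, against 10.7% and 11.2% of all genes tested. The median log2 fold change was 0.27, with 23 of 30 positive. Dnmt3a, a de novo DNA methyltransferase, had 55.3, 45.3 and 43.5 CPM in Control against 103, 111 and 80.0 CPM in IMP1 libraries (log2 fold change 1.03, SE 0.20, edgeR adjusted p = 0.0809, DESeq2 adjusted p = 7.99e-05). Dnmt3b, its relative, stood at 29.8 ± 7.56 and 70.9 ± 15.5 CPM (1.25, SE 0.27, edgeR adjusted p = 0.0991, DESeq2 adjusted p = 0.000683). In both genes every IMP1 library was above every Control library, as in 10.7% of all genes tested. Over 14 alternatives the adjusted p of Dnmt3a went up to 0.228 and that of Dnmt3b up to 0.236, and DESeq2 alone put them past the threshold. Trim28, the corepressor that ZFP57 recruits, was at 158 ± 20.4 and 158 ± 10.2 CPM (edgeR adjusted p = 0.999), and Tet2, which oxidises methylcytosine, at 81.4 ± 8.49 and 112 ± 34.2 CPM (edgeR adjusted p = 0.444).

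Of 29 tested genes of PI3K and mTOR signalling, 1 was called by edgeR and by DESeq2, the regulatory subunit gene Pik3r1, which was higher in IMP1 libraries (74.4 ± 4.97 and 183.5 ± 24.6 CPM, log2 fold change 1.30, SE 0.15, edgeR adjusted p = 0.0287). It was called in 7 of 14 alternatives, with an adjusted p of up to 0.162, and in none of the fits without 1 library. The list median was 0.19, and 5 of 29 genes had an unadjusted p under 0.05, all of them higher in IMP1 libraries. Over all genes that share was 14.3% in either direction and 6.67% higher, while edgeR called 0.211% and DESeq2 6.39%. Igf1r, the receptor for insulin-like growth factors, was at 80.5 ± 11.2 and 113 ± 10.8 CPM (edgeR adjusted p = 0.246).

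Dlk1 acts beside the Delta and Notch genes, of which 14 of 22 were tested. edgeR called 0, 7 had an unadjusted p under 0.05 (6 higher and 1 lower, against 14.3% of all genes in either direction and 6.67% higher) and DESeq2 called 2 (6.39% of all genes). The list median was 0.65. Notch2, a Notch receptor, stood at 184 ± 20.1 and 287 ± 48.2 CPM (log2 fold change 0.64, SE 0.15, edgeR adjusted p = 0.117, DESeq2 adjusted p = 0.00456, range over 14 alternatives 0.00456 to 0.303). The ligand gene Jag2 stood at 0.403 ± 0.186 and 4.61 ± 3.00 CPM (3.51, SE 0.97, edgeR adjusted p = 0.167, DESeq2 adjusted p = 0.00895, range 0.00895 to 0.354). Rbpj, the DNA-binding partner of Notch, was at 99.1 ± 3.20 and 121 ± 24.9 CPM (edgeR adjusted p = 0.519).

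For Dio3, 13 of 15 genes of thyroid hormone handling were tested. edgeR called 0, against 0.211% of all genes. An unadjusted p under 0.05 was found for 1 gene (14.3% of all genes), the 1 that DESeq2 also called (6.39% of all genes). This was Rxra, a partner of the thyroid hormone receptors. Its levels were 0.376, 0.158 and 0.760 CPM in Control against 6.34, 0.101 and 14.5 CPM in IMP1 libraries, so that IMP1 2 lay below all 3 controls (edgeR adjusted p = 0.287). The abundant Ncor1 (158 ± 12.01 and 133 ± 25.6 CPM, edgeR adjusted p = 0.577) and Slc3a2 (103 ± 17.6 and 133 ± 28.1 CPM, edgeR adjusted p = 0.455) did not pass. For Rtl1, 5 of 14 listed genes derived from retrotransposon gag sequences were tested. Of these, 0 were called by edgeR, 0 by DESeq2 and 0 had an unadjusted p under 0.05, against the same shares of all genes. Rtl8c (37.2 ± 2.99 and 35.4 ± 6.93 CPM) and Rtl8a (12.5 ± 2.75 and 10.7 ± 0.786 CPM) were the most abundant, and Rtl5 stood at 3.32 ± 1.34 and 2.33 ± 0.618 CPM.

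Among 19 tested imprinted genes of other clusters edgeR called 0, 6 had an unadjusted p under 0.05 (all higher, against 6.67% of all genes) and DESeq2 called 5 (6.39% of all genes), 4 of them higher. The list median was 0.40. The noncoding RNAs Airn (1, 2 and 1 counts in Control, 264, 233 and 296 in IMP1 libraries, edgeR adjusted p = 0.0609) and Kcnq1ot1 (290 ± 69.5 and 561 ± 57.5 CPM, edgeR adjusted p = 0.0809) had the lowest p of the list and were each called in 2 of 14 alternatives, with an adjusted p of up to 0.195 and 0.203. Airn lies antisense to Igf2r, so its counts are uncertain, and the abundant Impact (429 ± 21.0 and 487 ± 90.3 CPM, edgeR adjusted p = 0.619) did not pass. Of 6 tested genes of fetal stem cells edgeR called 1 (against 0.211% of all genes). This was Igf2bp1, the gene of the knock-in, so its call reflects the genotype and is no result about fetal genes. Hmga2 stood at 28.03 ± 6.10 and 42.5 ± 6.86 CPM (edgeR adjusted p = 0.346) and Mecom at 109 ± 26.0 and 137 ± 31.3 CPM (edgeR adjusted p = 0.570).

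**Figure D4:**
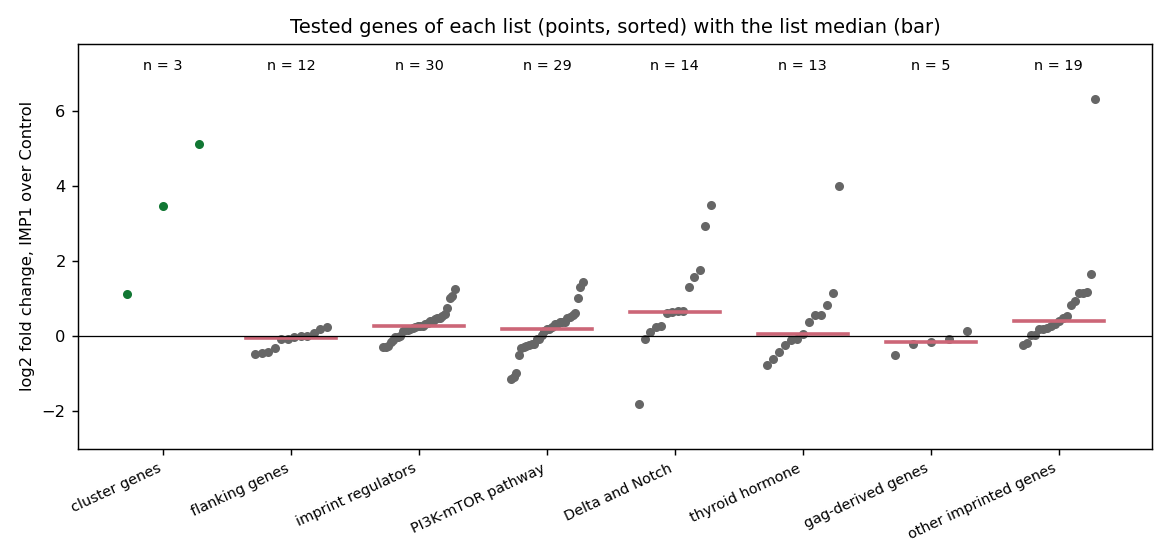
Fitted log2 fold changes (IMP1 over Control) of the tested genes of each list, sorted within the list, with the median as a bar (none drawn for the cluster). Meg3 and Rian, at 3.49 and 5.12, lie above every flanking gene. Airn, at 6.32, is the highest point of the other imprinted genes and lies above both. Rxra (4.01) and Jag2 (3.51) also lie above Meg3.

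The profile of Meg3 over the 6 libraries was also set beside those of all other genes tested, on log2 CPM with a prior count of 2. The points share the genotype and depth split, so the coefficients are descriptive. Cercam (r = 0.992), Fubp1 (0.991), Snora70 (0.989) and B930059L03Rik (0.988) were among the nearest. Rian (r = 0.792) was number 1018 in this ranking and Dlk1 (r = 0.765) number 1188. The nearest genes are the highest of all genes tested, and Rian and Dlk1 had few Control counts. The ranking therefore cannot decide how closely the cluster genes vary together. Fubp1, which encodes a DNA- and RNA-binding protein needed for stem cell self-renewal in mice, had 240.3 ± 31.9 CPM in Control against 342 ± 0.997 CPM in IMP1 libraries.

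**Figure D5:**
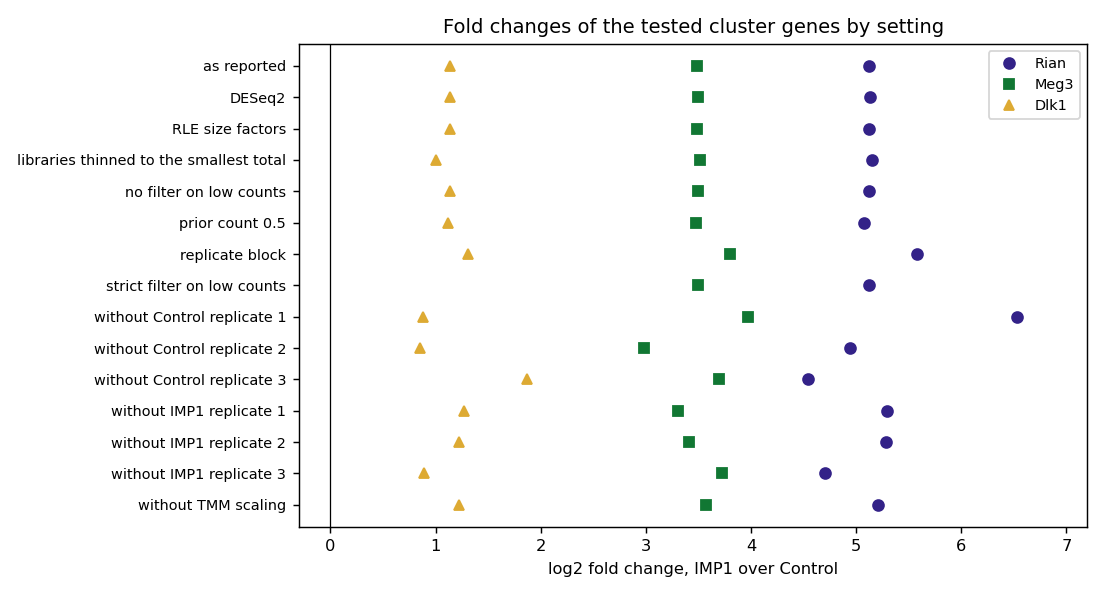
Fitted log2 fold changes of Rian, Meg3 and Dlk1 as reported and under each alternative setting, Dlk1 having no value under the strict filter. All values stayed above 0, between 4.54 and 6.53 for Rian, 2.99 and 3.97 for Meg3, and 0.85 and 1.87 for Dlk1.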

How the data were processed

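The cDNA came from the SMARTer Ultra Low kit, per the labels' protocols. The deposited table holds unnormalised counts by Entrez identifier, per the file headers. The submitters' processing notes list TopHat2 2.0.10 and mm9 without saying what each was used for. How reads were counted, and whether by strand, is not given in the sources used here. Symbols, gene order, miRNAs and start windows came from RefSeq GRCm38.p6 (21615 of 21761 identifiers matched) and transcript lengths and strands from GENCODE M21. Protein sequences were not used here. The build differs from mm9, so positions belong to the printed sequences only.

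Counts were tested with edgeR 4.0.16 in R 4.3.3 (glmQLFit and glmQLFTest, TMM scaling, filterByExpr, 12807 genes, genotype as the single term, Benjamini-Hochberg adjustment over all genes, threshold 0.05), checked on simulated data. Standard errors are the absolute log2 fold change over the square root of F. DESeq2 1.42.0, other scaling, filters and prior counts, thinning, a replicate block and each library left out were the alternatives. Replicates were not duplicates (chi-square per degree of freedom at least 61.0). The labels call the libraries biological replicates without naming animals, so p-values measure the spread between these libraries. The 6 genes and the lists (gene order, imprint regulators, PI3K-mTOR, Delta-Notch, thyroid hormone, gag-derived, other imprinted and fetal genes, cell markers) were chosen with earlier results of these data known. Named were the 6 genes, domain rows with at least 10 counts, and from each list the called, the 2 most abundant and the 2 genes of lowest p. The 5 genes closest to Meg3 also fell under the rule. Some genes under these rules are not reported here. Dio3os and the markers fall outside that rule and were chosen after their values were seen.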

Additional observations from a re-analysis of the deposited data

How the results depend on the processing

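The number of genes called over the whole table was 27 and depended on the settings. It was 879 with DESeq2, 98 with the strict filter (10 counts in every library of 1 group and a mean of 1 CPM), 16 without TMM scaling and 4 with the replicate block, and 0 to 2 when 1 library was left out. The fitted log2 fold changes of Meg3 and Rian under 14 alternatives, and of Dlk1 under 13, kept their direction. With 1 library left out they ranged from 2.99 to 3.97 for Meg3, 4.54 to 6.53 for Rian and 0.85 to 1.87 for Dlk1. The titles share replicate numbers, and same-numbered libraries had correlations of −0.00832 to 0.0310 between their deviations from the group means. With 3 libraries per group these values cannot decide whether the numbers mark pairs. With the replicate block Meg3 had a log2 fold change of 3.80 and Rian 5.57. Among the lists, DESeq2 called 3 imprint regulators, 2 Delta and Notch genes, 1 thyroid hormone gene and 5 other imprinted genes where edgeR called 0, and the strict filter gave 2 other imprinted genes. The single call in the PI3K and mTOR list went to 0 with the replicate block and was 0 to 0 when 1 library was left out. That in the fetal list was 0 to 1, and 0 without Control 3. Mirg, Rtl1 and Dio3 did not pass the filter and have no fitted value to compare. Few counts in the Control libraries limit the folds of Rian and Mirg, and an outlying library was not tested for in groups of 3.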
